A study of Homo sapiens with 12 samples.

Results

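The p53 target genes described here were the 10 rows of the count table with the symbols CDKN1A, CCNG1, PPM1D, MDM2, ZMAT3, TP53INP1, RRM2B, SESN1, FDXR and GDF15, out of 56634 gene symbols. They were chosen by name, as textbook p53 targets outside the BCL2, BTG and death receptor families, with earlier results of these data known. Of the 10 genes, 9 passed the filter on low counts and were tested among 14822 genes. GDF15 did not pass and is given as counts. On GRCh38 (GENCODE 29), the genes not located further below are CCNG1 (chr5:163437569-163446151, plus strand), PPM1D (chr17:60600183-60666280, plus), ZMAT3 (chr3:179017223-179072279, minus), TP53INP1 (chr8:94925972-94949411, minus), RRM2B (chr8:102204502-102239118, minus) and GDF15 (chr19:18374731-18389176, plus).

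The study sequenced bulk RNA of HEK293, a human embryonic kidney cell line, in 3 biological replicates of 4 groups. TNF_SnxB cells had 1 µM Senexin B for 1 h and then 10 ng/mL TNFα for 2 h more. TNF cells had 0.1% DMSO for 1 h and then the same TNFα for 2 h. SnxB cells had 1 µM Senexin B without TNFα, and DMSO cells had 0.1% DMSO, for 3 h in both. No DMSO is recorded for the SnxB and TNF_SnxB cells, and an effect of the vehicle was not tested. Senexin B inhibits CDK8 and CDK19, the kinases of the Mediator complex, and TNFα is a cytokine that activates NF-κB. The study compared gene expression with and without the inhibitor, in resting and in TNFα-treated cells.

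The transcription factor p53 is held low in unstressed cells by MDM2, a ubiquitin ligase that is itself a p53 target. After DNA damage and other stresses p53 is stabilised, and it then activates genes that stop the cell cycle, supply nucleotides for repair, limit growth signalling or start cell death. HEK293 cells carry adenovirus E1A and E1B genes, and an E1B protein binds p53 and blocks its activation of target genes, which limits the line as a model of p53 signalling. CDK8 has been described as a coactivator of some p53 targets in another human cell line.

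Promoter sequences are shown for CDKN1A, the member that was lower in every library with Senexin B than in every library without it, and for the 3 tested members with a match to a p53 site near an annotated start. The windows come from RefSeq (GRCh38.p14) and run from 250 bases before to 50 bases after a transcription start, 5′ to 3′ on the gene's strand. Of the 10 genes, 8 had such windows here, 16 in all. Each window was searched for a full p53 site, meaning 2 copies of the 10-base consensus p53 half-site with no spacer and at most 3 mismatches in 20 bases. The half-site consensus is its own reverse complement, so both strands were covered, and capitals mark the matches.
CDKN1A (chr6:36678464-36678763, plus strand): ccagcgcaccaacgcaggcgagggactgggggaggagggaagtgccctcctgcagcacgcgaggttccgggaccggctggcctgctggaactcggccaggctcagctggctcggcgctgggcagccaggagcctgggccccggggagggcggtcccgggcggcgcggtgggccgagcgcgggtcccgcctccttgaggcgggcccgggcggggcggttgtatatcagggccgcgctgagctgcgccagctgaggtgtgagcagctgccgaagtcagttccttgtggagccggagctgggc
MDM2 (chr12:68808767-68809066, plus strand): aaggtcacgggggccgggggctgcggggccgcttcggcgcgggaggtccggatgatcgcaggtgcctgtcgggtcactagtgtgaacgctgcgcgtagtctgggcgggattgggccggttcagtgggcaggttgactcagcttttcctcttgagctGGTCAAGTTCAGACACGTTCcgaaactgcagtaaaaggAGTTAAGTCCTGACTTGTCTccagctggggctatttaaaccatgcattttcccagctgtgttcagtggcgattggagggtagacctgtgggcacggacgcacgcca
FDXR (chr17:74872945-74873244, minus strand): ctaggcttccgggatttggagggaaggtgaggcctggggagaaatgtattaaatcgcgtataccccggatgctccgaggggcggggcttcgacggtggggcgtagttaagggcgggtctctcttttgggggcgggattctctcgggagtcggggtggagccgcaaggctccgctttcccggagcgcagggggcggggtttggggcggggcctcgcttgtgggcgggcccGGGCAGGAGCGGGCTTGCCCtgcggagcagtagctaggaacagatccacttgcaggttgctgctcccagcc
SESN1 (chr6:109008939-109009238, minus strand): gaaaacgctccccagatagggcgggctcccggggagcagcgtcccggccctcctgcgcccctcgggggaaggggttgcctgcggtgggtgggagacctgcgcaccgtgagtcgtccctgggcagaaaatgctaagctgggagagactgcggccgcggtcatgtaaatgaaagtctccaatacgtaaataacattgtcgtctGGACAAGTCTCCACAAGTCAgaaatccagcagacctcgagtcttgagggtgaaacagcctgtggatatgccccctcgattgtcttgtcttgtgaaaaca

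A full-site match lay in a window of MDM2, FDXR, SESN1 and GDF15, which is 4 of 8 genes, against 6.39% of the 27305 genes and 5.2% of the 35116 windows in the RefSeq table. The MDM2 window is at an internal start of the gene, inside its annotated span (chr12:68808176-68850686), and is the promoter known to answer to p53. It held matches that began 94 and 56 bases before the start, with 2 and 3 mismatches. The FDXR window spans the 5′ end of the gene (chr17:74862497-74873031), and its match, with 3 mismatches, began 21 bases before the start. The SESN1 window is at an internal start (gene span chr6:108986437-109094819), and its match, with 3 mismatches, began 49 bases before it. In GDF15 the match, also with 3 mismatches, began 28 bases after the start. The FDXR and SESN1 matches each included 1 half-site without a mismatch, which 6.63% of all windows held. The CDKN1A window lies inside the annotated span (chr6:36676460-36687339) and held no match, and the well-known p53 sites of CDKN1A lie farther upstream than such a window reaches. A match is a description of these letters and not evidence of binding.

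Library totals ran from 8705277 to 50943310 counts, and the largest, TNF library 2, had 4.87 times the median of the other 11. Levels are given as counts per 1000000 of the TMM-scaled library total (CPM), and a floor of 3 counts was 0.0589 to 0.345 CPM of the unscaled totals. TNF_SnxB libraries 2 and 3 stood apart from the other 10. The Spearman correlation across genes between their deviation from the average library and the GC content of the transcript was -0.683 and -0.681, against -0.117 to 0.449 in the others, so genes rich in GC were low in these libraries. The genes called in a comparison with TNF_SnxB are therefore given as measured, after correcting for GC content and transcript length (the GC correction below), and with TNF_SnxB library 1 alone. The treatments were visible in their known targets. NFKBIA, the NF-κB inhibitor gene, had 272, 271 and 269 CPM in TNF libraries, against 25.1, 27.7 and 28.9 CPM in DMSO libraries. MYC had 17.7, 17.4 and 18.9 CPM in SnxB libraries, against 87.8, 95.4 and 89.5 CPM in DMSO libraries. The 7 HEK293 markers were led by VIM, KRT8 and KRT18. They summed to 731 to 755 CPM in TNF_SnxB and 828 to 838 CPM in TNF libraries. The sums were 718 to 764 CPM in SnxB and 792 to 816 CPM in DMSO libraries. VIM alone had 441 to 537 CPM, while PAX2 was at or below 1.33 CPM, NEFM 0.879 CPM and LHX1 5.46 CPM. Of other cell types, 6 leukocyte markers summed to at most 1.37 CPM, 4 endothelial ones to at most 0.879 CPM and 3 hepatocyte ones to at most 0.341 CPM, with CD3E and CDH5 at 0. The 5 fibroblast markers summed to 14.9 to 19.0 CPM, nearly all of it COL1A1, with DCN at 0.

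The 10 genes covered a wide range of levels in cells with DMSO alone. With counts scaled for depth and exon length (RPKM), CCNG1 was far the highest of the 10 in DMSO libraries, at 110 ± 1.59 RPKM (SD, n = 3 here and below). MDM2 at 12.1 ± 0.168 RPKM, FDXR at 11.7 ± 0.244 RPKM and CDKN1A at 10.6 ± 0.339 RPKM came next. PPM1D had 9.39 ± 0.276 RPKM, SESN1 7.69 ± 0.700 RPKM and RRM2B 7.10 ± 0.117 RPKM. ZMAT3 had 3.79 ± 0.222 RPKM, TP53INP1 1.32 ± 0.141 RPKM and GDF15 0.249 ± 0.0421 RPKM. In this order, MDM2 and FDXR, and SESN1 and RRM2B, differed by less than the sum of their SDs. Exon length was the union of all annotated exons, so a gene with long, little-used exons reads low on this scale.

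**Figure D1:**
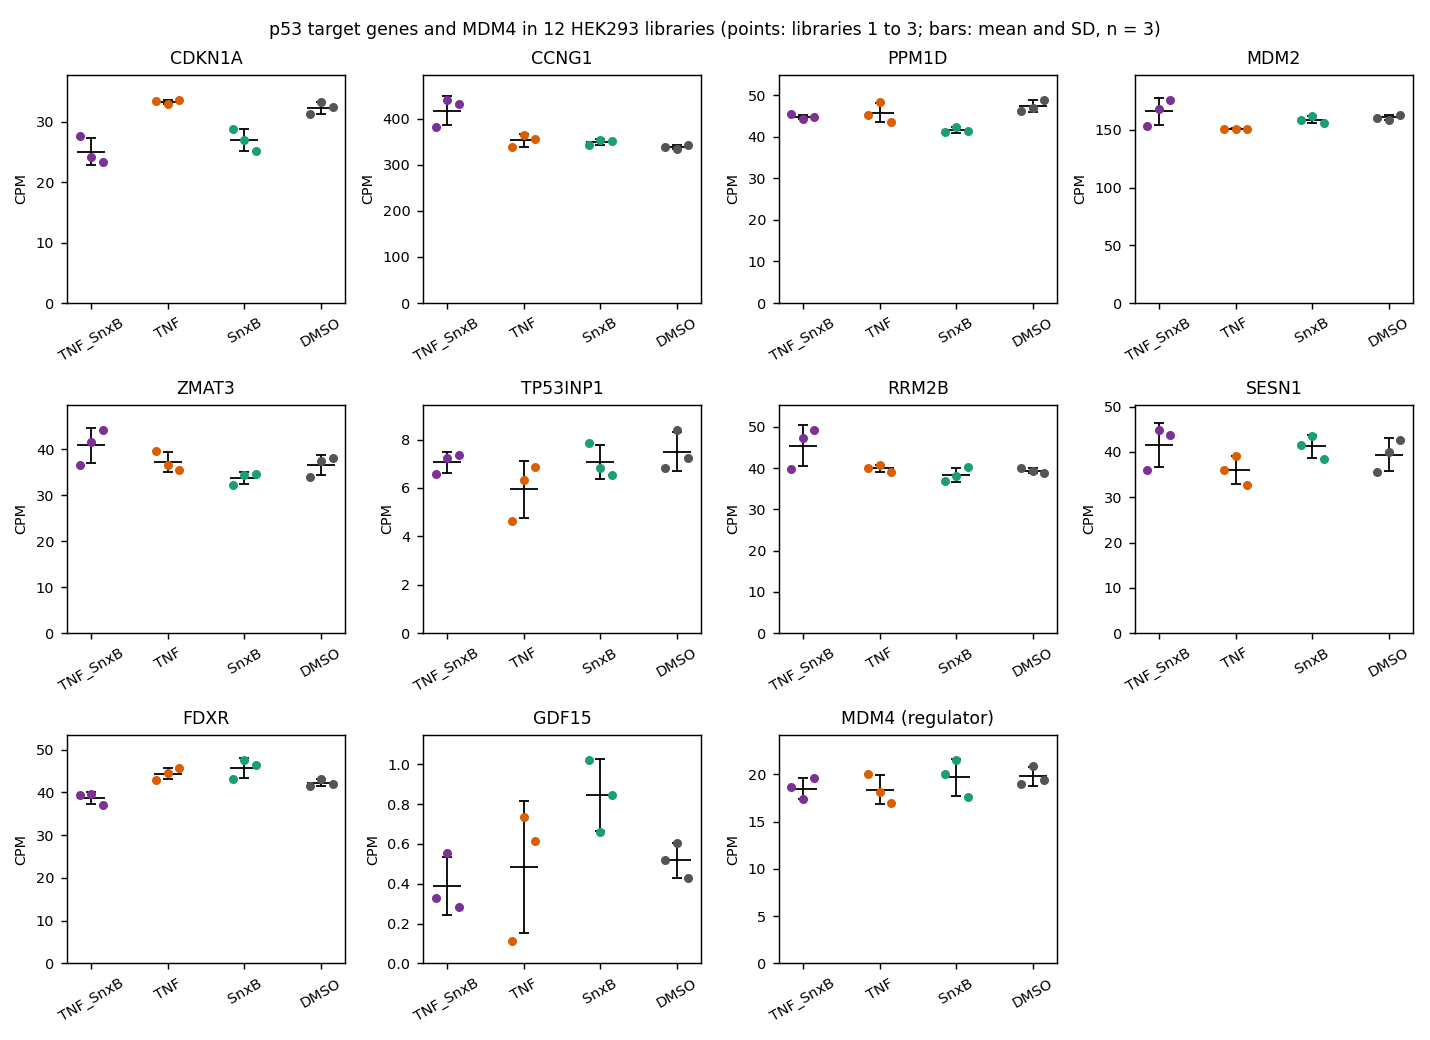
Level in CPM (vertical axis from 0) of the 10 p53 target genes and MDM4 in the TNF_SnxB, TNF, SnxB and DMSO groups; points are single libraries, horizontal bars the mean and vertical bars the SD (n = 3). CDKN1A lies lower in every library with Senexin B (23.4 to 28.8 CPM) than in every library without it (31.2 to 33.6 CPM).

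TNFα alone left the 9 tested p53 target genes without a call, although NFKBIA rose 9.93-fold in the same libraries. The edgeR test called 0 of the 9 for TNF against DMSO, where 2.02% of all tested genes were called. DESeq2 called 0 as well, against 1.58% of all tested genes, and 1, TP53INP1, had an unadjusted p under 0.05 in edgeR. TP53INP1, a stress-induced protein of autophagy and p53 signalling, had 4.64, 6.34 and 6.85 CPM in TNF libraries, against 6.84, 8.39 and 7.23 CPM in DMSO libraries. The groups overlapped, and the log2 fold change was -0.28 (SE 0.127, adjusted p = 0.44, edgeR). MDM2 had 151 CPM in each of the TNF libraries, against 160, 159 and 163 CPM in DMSO libraries. These groups did not overlap, as in 20.2% of all tested genes, and the log2 fold change of -0.09 (SE 0.0448) did not pass (adjusted p = 0.5, edgeR). MDM2 shares 785 of its 13284 exon bases with AC025423.4 and 133 with CPM, a carboxypeptidase gene, both on the opposite strand, and 439 with AC025423.2 on its own strand, and SESN1 shares 363 of 5121 with AL390208.1. The labels name the TruSeq RNA kit, and the strand setting of the counting is not given in the sources used here. Reads from shared bases therefore cannot be assigned to either gene here. In bulk RNA, a change per cell also cannot be told apart from a change in the share of cells that carry a transcript. The other 7 genes had log2 fold changes between -0.10 and 0.08, and the median of the 9 was 0.018, against -0.002 over all tested genes. For CDKN1A the fold was 1.03 with a 95% interval of 0.940 to 1.13, and for CCNG1 it was 1.04 with an interval of 0.981 to 1.11. After the GC correction CCNG1 was called, as were 3.76% of all tested genes, with a log2 fold change of 0.10 (adjusted p = 0.0177, edgeR).

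CDKN1A and PPM1D were lower in every SnxB library than in every DMSO library, and neither passed the adjusted test. In this comparison the groups did not overlap, in either direction, in 20.4% of all tested genes. Of the 9 genes, edgeR and DESeq2 each called 0 for SnxB against DMSO, where edgeR called 2.03% and DESeq2 1.81% of all tested genes. These 2 genes had an unadjusted p under 0.05 in edgeR. Both were called after the GC correction, as were 4.4% of all tested genes, and without TNF_SnxB libraries 2 and 3, as were 5.88%. CDKN1A encodes p21, the cyclin-dependent kinase inhibitor that arrests the cell cycle after p53 activation. CDKN1A had 28.8, 27.0 and 25.2 CPM in SnxB libraries, against 31.2, 33.2 and 32.4 CPM in DMSO libraries. No SnxB library reached the lowest DMSO library. The fold was 0.837 (95% interval 0.754 to 0.929), a log2 fold change of -0.26 (SE 0.0734, adjusted p = 0.0656, edgeR). Its adjusted p ranged from 0.00979 to 0.346 over 21 alternatives, and it was called in 5, among them the fit of SnxB and DMSO libraries alone, the GC correction and the fits without TNF_SnxB library 1 or without TNF_SnxB libraries 2 and 3.

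PPM1D is the phosphatase that dephosphorylates p53 and the damage kinases upstream of it. PPM1D had 41.1, 42.4 and 41.5 CPM in SnxB libraries, against 46.2, 47.0 and 48.9 CPM in DMSO libraries. The groups did not overlap, and the log2 fold change was -0.18 (SE 0.0608, adjusted p = 0.137, edgeR), with a call in 4 of 21 alternatives. CDKN1A and PPM1D were the 2 of 9 genes whose groups did not overlap in this comparison, a share close to the 20.4% of all tested genes. The other 7 had log2 fold changes between -0.11 for ZMAT3 and 0.12 for FDXR. The median of the 9 genes was -0.035, against 0.003 over all tested genes. For MDM2 the fold was 0.991 with a 95% interval of 0.928 to 1.06, and for CCNG1 1.03 with an interval of 0.969 to 1.10.

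**Figure D2:**
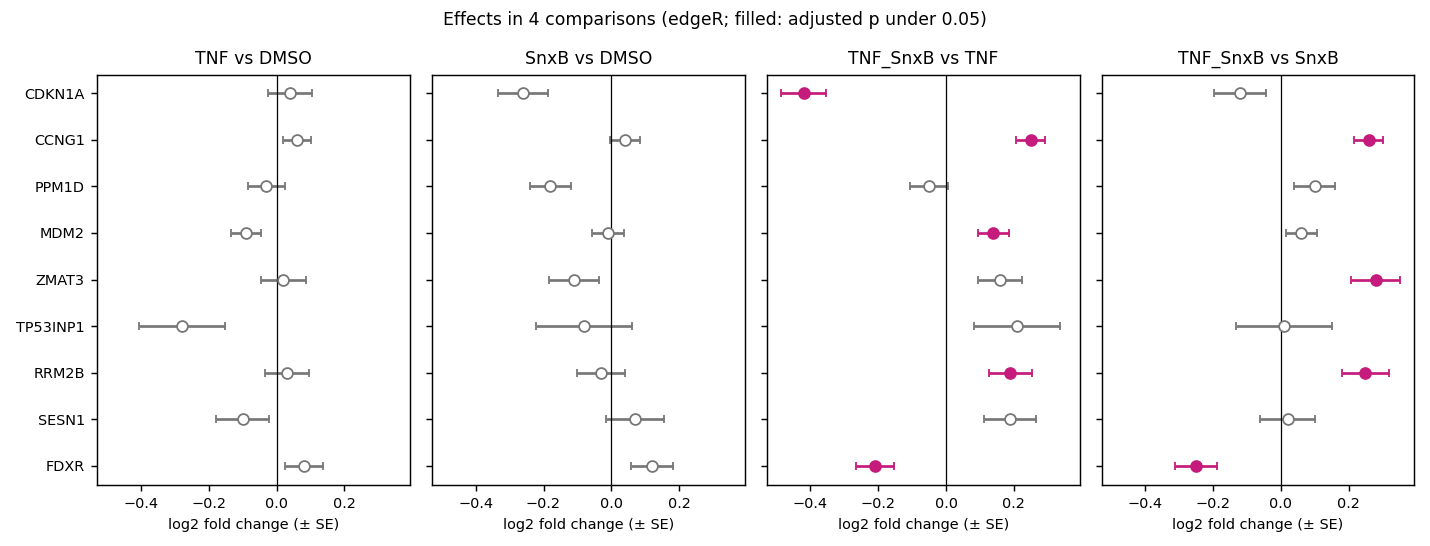
Log2 fold change (horizontal axis, bars are ± SE) of the 9 tested p53 target genes in TNF vs DMSO, SnxB vs DMSO, TNF_SnxB vs TNF and TNF_SnxB vs SnxB; filled points passed an adjusted p of 0.05 in edgeR. No point is filled in the first 2 panels, and the 2 panels with TNF_SnxB hold 5 and 4 filled p53 targets.

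In TNFα-treated cells, CDKN1A was lower and CCNG1 higher with Senexin B than without it, and both calls held after the GC correction. Of the 9 genes, 5 were called for TNF_SnxB against TNF, 3 higher and 2 lower, in a comparison where 27.2% of all tested genes were called. After the GC correction 2 remained called, CDKN1A and CCNG1, against 11.6% of all tested genes. The groups of 4 genes, CDKN1A, FDXR, MDM2 and CCNG1, did not overlap, against 32.0% of all tested genes. With TNF_SnxB library 1 alone edgeR called 0 of the 9 and 2.69% of all tested genes, and 3 of the 9 had an unadjusted p under 0.05. In that fit the lone library was assumed to vary like the other groups. The number called was 7 without TNF_SnxB library 1, where 6784 of the 14822 tested genes were called. It was 3 without TNF_SnxB library 2 (2016 of all tested genes) and 2 without TNF_SnxB library 3 (1869). It was 3 without any 1 of the TNF libraries (2934, 2487 and 2874 of all tested genes without libraries 1, 2 and 3).

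CDKN1A had 27.6, 24.1 and 23.4 CPM in TNF_SnxB libraries, against 33.4, 33.0 and 33.6 CPM in TNF libraries. All TNF_SnxB libraries were below all TNF libraries, and libraries 2 and 3 were lower than library 1. The fold was 0.747 (95% interval 0.680 to 0.821), a log2 fold change of -0.42 (SE 0.0666, adjusted p = 5.56e-05, edgeR). The log2 fold change was -0.27 after the GC correction (adjusted p = 0.000677) and -0.27 with TNF_SnxB library 1 alone (adjusted p = 0.156, edgeR in both). The fit with library 1 alone was the only one of 21 alternatives without a call for CDKN1A. The values after correction and with library 1 alone were close to the -0.26 of SnxB against DMSO. Over all 12 libraries, the 6 with Senexin B had 23.4 to 28.8 CPM and the 6 without it 31.2 to 33.6 CPM. CDKN1A was the only one of the 9 genes that was lower in every library with Senexin B than in every library without, as were 2.65% of all tested genes. The transcript of CDKN1A shares 146 exon bases with DINOL, a non-coding gene on the opposite strand.

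CCNG1 encodes cyclin G1, which recruits a phosphatase to MDM2. CCNG1 had 382, 441 and 433 CPM in TNF_SnxB libraries, against 338, 364 and 357 CPM in TNF libraries. The groups did not overlap, and the fold was 1.19 (95% interval 1.12 to 1.26), a log2 fold change of 0.25 (SE 0.042, adjusted p = 0.000139, edgeR). It was 0.09 after the GC correction (adjusted p = 0.00843) and 0.10 with library 1 alone (adjusted p = 0.141, edgeR in both), and the fit with library 1 alone was the only one of 21 alternatives without a call.

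The other 3 calls did not hold after the GC correction. MDM2 had 153, 168 and 176 CPM in TNF_SnxB libraries, against 151 CPM in each TNF library, a log2 fold change of 0.14 (adjusted p = 0.0195, edgeR) that was 0.02 after the correction and 0.02 with library 1 alone. RRM2B, the p53-induced subunit of ribonucleotide reductase, had 39.8, 47.3 and 49.2 CPM in TNF_SnxB libraries, against 40.1, 40.8 and 39.1 CPM in TNF libraries. Only libraries 2 and 3 of TNF_SnxB lay above the TNF libraries, and the log2 fold change of 0.19 (adjusted p = 0.0251, edgeR) became -0.01 after the correction and -0.02 with library 1 alone. FDXR, a mitochondrial ferredoxin reductase, had 39.3, 39.7 and 37.0 CPM in TNF_SnxB libraries, against 43.0, 44.6 and 45.7 CPM in TNF libraries. These groups did not overlap, and the log2 fold change was -0.21 (adjusted p = 0.00812, edgeR), against -0.002 after the correction and -0.18 with library 1 alone (adjusted p = 0.324).

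Before the correction, the direction of the 9 genes followed their GC content. The 6 genes with the lowest transcript GC content, from RRM2B at 36.4% to SESN1 at 43.4%, all had log2 fold changes above 0. PPM1D at 45.1%, CDKN1A at 58.0% and FDXR at 61.8% had values below 0. SESN1, a stress-induced inhibitor of mTORC1, had 35.9, 44.8 and 43.7 CPM in TNF_SnxB libraries, against 36.0, 39.1 and 32.8 CPM in TNF libraries. ZMAT3, an RNA-binding zinc finger protein, had 36.7, 41.7 and 44.2 CPM in TNF_SnxB libraries, against 39.7, 36.6 and 35.6 CPM in TNF libraries. In both genes libraries 2 and 3 exceeded library 1, and neither was called (adjusted p = 0.0694 for SESN1 and 0.0749 for ZMAT3, edgeR). The log2 fold change of SESN1 was 0.19, and -0.05 with library 1 alone. The median of the 9 genes was 0.156 before the correction and 0.002 after it, against 0.001 and 0.009 over all tested genes. The part of GC content in these differences was not tested beyond the correction.

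**Figure D3:**
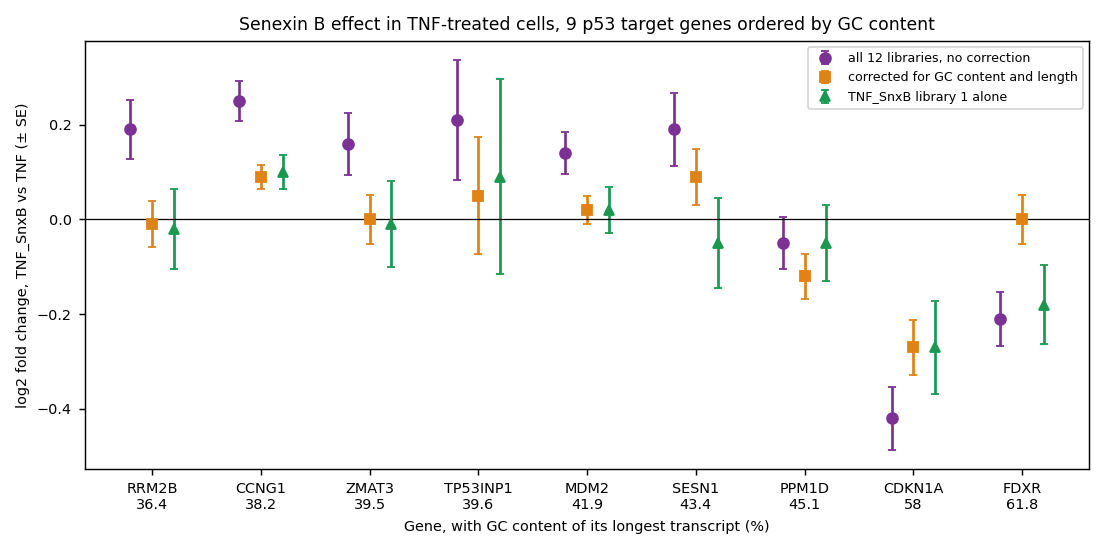
Log2 fold change of TNF_SnxB vs TNF (vertical axis, bars are ± SE) for the 9 tested p53 target genes, ordered left to right by the GC content (%) of the longest transcript; circles are all 12 libraries without correction, squares after the GC correction, triangles with TNF_SnxB library 1 alone. The uncorrected values run from 0.25 for CCNG1 to -0.42 for CDKN1A, and CDKN1A lies at -0.27 in both other fits.

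MDM4, a relative of MDM2 that also restrains p53, was called in none of the 5 comparisons by edgeR or DESeq2. It ranged from 17.4 to 19.6 CPM in TNF_SnxB, 17.0 to 20.1 CPM in TNF, 17.6 to 21.5 CPM in SnxB and 19.0 to 20.9 CPM in DMSO libraries.

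Of the 9 tested targets, 4 were called for TNF_SnxB against SnxB, where 14.2% of all tested genes were called, and 1 after the GC correction, where 4.8% were. That 1 was CCNG1, which had 382, 441 and 433 CPM in TNF_SnxB libraries, against 343, 354 and 352 CPM in SnxB libraries. Its log2 fold change was 0.26 (SE 0.0429, adjusted p = 0.000201), 0.14 after the correction (adjusted p = 0.000385) and 0.12 with TNF_SnxB library 1 alone (adjusted p = 0.0783, edgeR in all 3). The other calls were ZMAT3 at 0.28, RRM2B at 0.25 and FDXR at -0.25. These were 0.17, 0.09 and -0.08 after the correction and 0.12, 0.05 and -0.22 with TNF_SnxB library 1 alone, without a call in either fit. With TNF_SnxB library 1 alone edgeR called 0 of the 9 genes and 1.46% of all tested genes, while 3 of the 9 had an unadjusted p under 0.05. Without TNF_SnxB library 3 the number called was 1, where 503 of the 14822 tested genes were called. It was 2 without SnxB library 1 (909 of all tested genes), SnxB library 2 (1022) or TNF_SnxB library 2 (567). All of these fits kept CCNG1. CDKN1A was not called here, with a fold of 0.919 (95% interval 0.825 to 1.02), and its log2 fold change was -0.12, against 0.03 with library 1 alone.

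Whether Senexin B altered the TNFα response was asked with the interaction, the TNFα effect with minus without Senexin B, for which 2.5% of all tested genes were called. Of the 9 targets, 1 was called, FDXR, lower at -0.32 (SE 0.0833, adjusted p = 0.0396, edgeR), against 1.61% of all tested genes in that direction. FDXR averaged 38.7 ± 1.43 CPM in TNF_SnxB, 44.4 ± 1.35 CPM in TNF, 45.7 ± 2.28 CPM in SnxB and 42.3 ± 0.878 CPM in DMSO libraries. The value was -0.11 after the GC correction (adjusted p = 0.727), under which 0.27% of all tested genes were called, and -0.30 with TNF_SnxB library 1 alone (adjusted p = 0.448, edgeR in both). It was called in 7 of 20 alternatives, and leaving out any 1 library other than DMSO library 2 or TNF_SnxB library 1 ended the call. Without TNF_SnxB library 1, 5 of the 9 were called, and so were 4521 of the 14822 tested genes. For CDKN1A the interaction was -0.16 (SE 0.0995, adjusted p = 0.327, edgeR) and -0.01 after the correction. The 95% interval of the uncorrected ratio of folds for CDKN1A ran from 0.775 to 1.03.

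GDF15, a secreted stress cytokine of the TGF-beta family, was near the detection floor. GDF15 had 3, 7 and 4 counts in TNF_SnxB libraries, 1, 37 and 7 in TNF, 9, 7 and 8 in SnxB, and 6, 6 and 5 in DMSO libraries. The 37 counts are from the largest library, and its highest level was 1.02 CPM, in an SnxB library. In a fit without the low-count filter, SnxB against DMSO gave a log2 fold change of 0.67 (SE 0.469, adjusted p = 0.815, edgeR), so a difference was not detectable at this depth. The interaction in that fit was -1.35 (SE 0.645, adjusted p = 0.338, edgeR).

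A list of 32 other p53 target genes, of which 29 were tested, held calls with each agent. For TNF against DMSO 6 were higher and 0 lower, against 1.43% and 0.594% of all tested genes. The list's median log2 fold change was 0.024, against -0.002 over all tested genes. BBC3, the death activator PUMA, had 26.9, 27.9 and 29.4 CPM in TNF libraries, against 18.7, 19.4 and 19.8 CPM in DMSO libraries, a log2 fold change of 0.54 (SE 0.0797, adjusted p = 3.85e-05, edgeR). DRAM1, an autophagy regulator, rose by 0.80 on the log2 scale (SE 0.125) and TNFRSF10B, a TRAIL receptor, by 0.32 (SE 0.045). BTG2, an antiproliferative gene, rose by 0.37 (SE 0.0592), and the other two called were FAS and GADD45A, at 0.33 and 0.28. DRAM1, TNFRSF10B and BTG2 were called in all 21 alternatives, as was BBC3, while FAS was called in 14 and GADD45A in 20.

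For SnxB against DMSO 4 of the 29 were lower and 0 higher, against 1.69% and 0.344% of all tested genes, and the list's median was -0.021, against 0.003. PMAIP1, the death activator NOXA, had 177, 181 and 185 CPM in SnxB libraries, against 380, 359 and 387 CPM in DMSO libraries. The log2 fold change of PMAIP1 was -1.05 (SE 0.0501, adjusted p = 1.67e-15, edgeR), against -0.26 for CDKN1A in the same libraries. BBC3 fell by 0.46 (SE 0.0992), BTG2 by 0.45 (SE 0.07) and AEN, a nuclease gene, by 0.22 (SE 0.0504) on the log2 scale. BBC3 was not called without SnxB library 1 or 2 (adjusted p = 0.0951 and 0.0679, edgeR), nor AEN without DMSO library 1 or 2 or SnxB library 1 or 3 (adjusted p from 0.0553 to 0.13, edgeR). BBC3 and BTG2 were thus called in both comparisons, higher with TNFα and lower with Senexin B, and both comparisons use the same DMSO libraries.

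**Figure D4:**
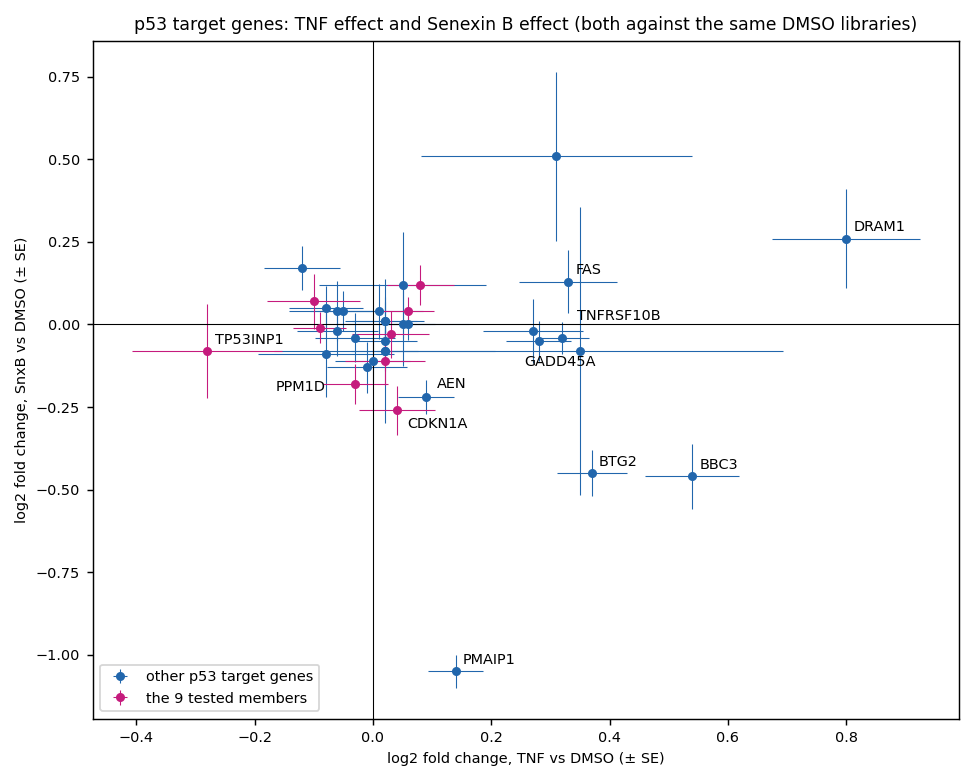
Log2 fold change of TNF vs DMSO (horizontal axis) and of SnxB vs DMSO (vertical axis) for the 9 tested members and the 29 other p53 target genes, with bars of ± SE; both axes use the same DMSO libraries. PMAIP1 lies at -1.05 on the vertical axis and DRAM1 at 0.80 on the horizontal axis, while CDKN1A lies at 0.04 and -0.26.

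For TNF_SnxB against TNF 11 of the 29 were called, 4 higher and 7 lower, against 13.3% and 13.9% of all tested genes. The number called was 8 after the GC correction, 2 higher and 6 lower, against 11.6% of all tested genes in either direction. The list's median was -0.035, against 0.001. PMAIP1 had 223, 266 and 269 CPM in TNF_SnxB libraries, against 416, 412 and 414 CPM in TNF libraries, a log2 fold change of -0.71 that was -0.86 after the GC correction and -0.89 with library 1 alone. BBC3 at -0.85 and AEN at -0.29 were lower as well, and both stayed called after the correction (-0.53 and -0.26) and with TNF_SnxB library 1 alone (-0.67 and -0.19). PHLDA3, a repressor of AKT, was at -0.40, and at -0.24 after the correction, and it lost its call with TNF_SnxB library 1 alone (-0.31, adjusted p = 0.147, edgeR). Of the 4 higher genes, FAS (0.40) and SESN2 (0.22), a relative of SESN1, stayed called after the correction, at 0.27 and 0.37. With TNF_SnxB library 1 alone they were at 0.24 and 0.35, and FAS lost its call. For TNF_SnxB against SnxB 7 were higher and 2 lower, against 7.38% and 6.83%, with a median of 0.075 against -0.004. The number called was 7 after the correction, all higher, against 4.8% of all tested genes in either direction. PMAIP1 at 0.49, BTG2 at 0.56, TNFRSF10B at 0.36 and FAS at 0.60 had the smallest p. All 4 stayed called after the correction (0.35, 0.59, 0.38 and 0.48) and with library 1 alone (0.30, 0.51, 0.42 and 0.44). For the interaction 1 was called, PMAIP1, higher as in 0.891% of all tested genes, at 0.35 (SE 0.069, adjusted p = 0.0223, edgeR), with 0.18 after the GC correction and 0.16 with TNF_SnxB library 1 alone (adjusted p = 0.0362 and 0.344). Leaving out any 1 library other than DMSO library 2 or TNF_SnxB library 1 ended this call (adjusted p up to 0.114, edgeR).

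Of 19 tested genes that act on p53, edgeR called 0 for TNF against DMSO, where 2 had an unadjusted p under 0.05, and DESeq2 called 0, against 2.02% and 1.58% of all tested genes. These 2, PML among them, were called in 7 and 8 of 21 alternatives. After the GC correction PML alone was called, higher at 0.24 (adjusted p = 0.0258, edgeR), against 3.76% of all tested genes. TP53RK, a kinase of p53, was the only 1 called for SnxB against DMSO, against 2.03% of all tested genes. TP53RK had 27.9, 27.3 and 27.5 CPM in SnxB libraries, against 36.5, 34.6 and 33.9 CPM in DMSO libraries, a log2 fold change of -0.35 (SE 0.0709, adjusted p = 0.00416, edgeR). For TNF_SnxB against TNF 3 of the 19 were called, against 27.2% of all tested genes, ATR (0.22), RCHY1 (0.16) and PML (-0.21). After the GC correction 1 gene of the list was called, lower, where 11.6% of all tested genes were called in either direction. It was not ATR, RCHY1 or PML, and these 3 were then at 0.06, -0.03 and -0.05 without a call. With TNF_SnxB library 1 alone they were at 0.21, 0.17 and -0.12, and ATR alone stayed called (adjusted p = 0.0325, edgeR). For TNF_SnxB against SnxB 3 were called, against 14.2% of all tested genes, ATR (0.18), RCHY1 (0.21) and TP53RK (0.22), all higher. All 3 calls were lost after the correction (0.07, 0.05 and 0.17) and with library 1 alone (0.18, 0.22 and 0.11), and no other gene of the list was called in those fits. For the interaction edgeR called 0, where 7 had an unadjusted p under 0.05, and DESeq2 called 0, against 2.5% of all tested genes in edgeR.

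Paralogs of the members were followed in a list of 20, of which 18 were tested. RRM2, the S-phase counterpart of RRM2B in ribonucleotide reductase, was the 1 called for SnxB against DMSO, where 2.03% of all tested genes were. RRM2 had 271, 282 and 271 CPM in SnxB libraries, against 361, 341 and 362 CPM in DMSO libraries, a log2 fold change of -0.37 (SE 0.0406, adjusted p = 2.61e-07, edgeR). In the same comparison RRM2B was at -0.03 (SE 0.0715), with a 95% interval of the fold from 0.882 to 1.08. RRM2 was also lower in TNF_SnxB than in TNF libraries, with a log2 fold change of -0.27, of -0.31 after the GC correction and of -0.38 with TNF_SnxB library 1 alone. For TNF against DMSO 2 were called, both lower, against 0.594% of all tested genes in that direction. These were CCNG2 at -0.33 (SE 0.076) and SESN3 at -0.29 (SE 0.06). Their relatives CCNG1 and SESN1 were at 0.06 and -0.10 and were not called. CCNG2 lost its call without DMSO library 1, DMSO library 3 or TNF library 2, and SESN3 without DMSO library 1 or TNF library 2 (adjusted p from 0.0601 to 0.193, edgeR). For TNF_SnxB against TNF 7 of the 18 were higher and 3 lower, against 13.3% and 13.9% of all tested genes. The number called was 5 after the GC correction, 2 higher and 3 lower, against 11.6% of all tested genes in either direction. The 4 with the smallest p were RRM2, CDKN1B (0.23), TGFB1 (-0.32) and PPM1A (0.24), and CDKN1B stayed at 0.24 after the GC correction while TGFB1 and PPM1A moved to -0.07 and 0.00. With library 1 alone CDKN1B, TGFB1 and PPM1A were at 0.17, -0.16 and 0.14, without a call (adjusted p = 0.104 for CDKN1B, edgeR). For TNF_SnxB against SnxB and for the interaction edgeR called 0, against 14.2% and 2.5% of all tested genes. DESeq2 called 0 as well, against 1583 and 449 of the 14822 tested genes. In edgeR 2 and 4 of the 18 had an unadjusted p under 0.05. After the GC correction 2 of the 18 were called for TNF_SnxB against SnxB, both lower, against 4.8% of all tested genes. The interaction then had 0, against 0.27%. The differences between a member and its paralog were not tested.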

How the data were processed

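RNA of 12 HEK293 samples was sequenced after preparation with the TruSeq RNA kit, per the labels. The values are raw counts of reads per gene symbol, whole numbers that the authors deposited without normalization. The submitters' processing notes name STAR 2.4, SAMtools 1.2, Subread 1.4.6 with featureCounts, and the build GRCh38 (hg38), with annotation and strand setting not given in the sources used here. Counts were filtered (filterByExpr, 14822 of 56634 genes), scaled by TMM, and entered 1 edgeR quasi-likelihood fit of 4 group means over all 12 libraries. Tests were two-sided F tests, adjusted by Benjamini-Hochberg over all tested genes, and called under 0.05. The common biological coefficient of variation was 3.49%. SE is the log2 fold change over the square root of F, and CPM use TMM-scaled totals. For genes with GENCODE 29 GC content (90.8% of those tested), the GC correction used loess offsets per library. The scripts were tested on simulated data. The lowest chi-square per degree of freedom between replicates was 1.068, so none was counted as a copy of another. Counting noise alone gives values near 1, so this check cannot tell biological from technical replicates. The value was 5.631 between TNF_SnxB libraries 1 and 2 and 5.39 between libraries 1 and 3. Replicates are named biological in the labels, without saying how they were separated.

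The text names the 10 members and MDM4, up to 4 called genes of each list by smallest adjusted p, and NFKBIA and MYC as treatment checks. FAS, GADD45A and PML for TNF against DMSO, FAS and SESN2 for TNF_SnxB against TNF, and the marker genes stand outside that rule. A further gene that the rule names is not reported here. The members and lists were chosen with earlier results of these data known, and the comparison of all 6 libraries with and all 6 without Senexin B after their values were seen. The limits of the promoter search, no spacer and at most 3 mismatches, replaced a looser search that had been seen. Alternatives were no low-count filter, median-of-ratios size factors, DESeq2, only the groups compared, a replicate block, the GC correction, leaving out libraries, and TNF library 2 thinned to the depth of the others. Tests ran in edgeR 4.0.16 and DESeq2 1.42.0 under R 4.3.3 with limma 3.58.1; summaries and figures used matplotlib 3.10.9 and Python 3.11.15.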

Additional observations from a re-analysis of the deposited data

Results flagged for a closer look

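The interaction test of edgeR compared the TNFα effect between cells with and without Senexin B. Of the members and listed genes it called 2, and it called 2.5% of all tested genes. FDXR had an interaction log2 fold change of -0.32 (adjusted p = 0.0396), and its TNFα effect was -0.25 with Senexin B and 0.08 without. PMAIP1 had an interaction of 0.35 (adjusted p = 0.0223), and its TNFα effect was 0.49 with Senexin B and 0.14 without. After the GC correction the interactions were -0.11 (adjusted p = 0.727) and 0.18 (adjusted p = 0.0362). With TNF_SnxB library 1 alone they were -0.30 and 0.16. Leaving out any 1 library other than DMSO library 2 or TNF_SnxB library 1 ended both calls.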

How the results depend on the processing

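Numbers of genes called by edgeR are given in the order TNF vs DMSO, SnxB vs DMSO, TNF_SnxB vs TNF, TNF_SnxB vs SnxB and interaction, with 300, 301, 4029, 2106 and 370 over all 12 libraries. With only the groups compared they were 776, 735, 2438 and 510, after the GC correction 558, 652, 1720, 711 and 40, and without TNF_SnxB replicates 2 and 3 they were 866, 871, 399, 217 and 17. Without the low-count filter the interaction had 711. The numbers of members called, 0, 0, 5, 4 and 1, became 1, 2, 2, 1 and 0 after the GC correction. Without TNF_SnxB replicates 2 and 3, 2 were called for SnxB against DMSO and 0 in the 3 comparisons that use TNF_SnxB. With only the groups compared, 1 was called for SnxB vs DMSO, 3 for TNF_SnxB vs TNF and 1 for TNF_SnxB vs SnxB. Without the low-count filter there were 3 for TNF_SnxB against TNF, where 3403 genes were called, and 2 for the interaction. The interaction also had 2 with DESeq2 and with TNF library 2 thinned, where 449 and 340 genes were called. Same-numbered replicates did not deviate together (correlations from -0.066 to 0.073 in 12 pairs), so the numbers were not taken to pair the samples. With the replicate number as a block the genes called were 291, 306, 4163, 2203 and 736, and 2 members were called for the interaction; with the GC correction and the block the genes were 554, 691, 1727, 762 and 66 and the members 1, 2, 2, 1 and 0. Leaving out each library in turn gave 177 to 873, 171 to 883, 1869 to 6784, 503 to 5402 and 3 to 4521 genes, and 0, 0 to 2, 2 to 7, 1 to 5 and 0 to 5 members. The highest gene numbers were without TNF_SnxB library 1, and without TNF_SnxB library 3 2 members were called for TNF_SnxB vs TNF and 1 for TNF_SnxB vs SnxB. Leaving out TNF_SnxB library 2 or any TNF library gave 3 for TNF_SnxB vs TNF, and leaving out SnxB library 1 or 2 or TNF_SnxB library 2 gave 2 for TNF_SnxB vs SnxB. For TNF_SnxB against TNF, RRM2B changed sign to -0.01 after the GC correction, with or without the block, and to -0.021 without TNF_SnxB replicates 2 and 3. FDXR changed to 0.013 with the GC correction and the block, and RCHY1 to -0.032 with the correction and -0.021 with the block added. Over members, comparisons and alternatives, 844 values kept their side of the threshold, 64 lost a call and 24 gained one; for other named genes these were 716, 79 and 0. Of the lost calls 4 and 2 had the opposite sign, as given above, and 28 values of members and 17 of other named genes that were called in neither fit changed sign. The cause of these changes was not tested.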
